A study of Mus musculus with 6 samples.

Results

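The transforming growth factor beta (TGF-beta) pathway was followed through 9 genes: the ligand Tgfb1, the receptor chains Tgfbr1 and Tgfbr2, the signal-carrying Smads Smad2, Smad3 and Smad4, the inhibitory Smad Smad7, and the corepressors Ski and Skil. Every probe set (a group of probes read as 1 value) that the platform annotation ties to one of these symbols was taken, which gave 9 probe sets, 1 per gene, among 23410 probe sets with a gene name. All 9 were tested, with no filter on low levels. The series holds 6 whole-transcript arrays of CD4+ CD44+ T cells sorted from draining lymph nodes of male Bcl6_RFP reporter mice, 8 to 10 weeks old, after immunisation with KLH/CFA, the protein keyhole limpet haemocyanin given in Freund's complete adjuvant. All groups share this reporter genotype, sex, age and immunisation, and they differ in the sort gate: Cxcr5+Bcl6+, Cxcr5+Bcl6- and Cxcr5-Bcl6-, with 2 arrays each. Bcl6 here means the red fluorescence of the reporter and not Bcl6 protein. The sources used here do not say whether mice were pooled or whether the 2 arrays of a group came from separate animals. The p-values therefore rest on a spread between these arrays that is shared in part across probe sets and may be partly technical.

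TGF-beta is a secreted dimer that is held in a latent form until integrins or proteases release it. It binds the type II receptor chain Tgfbr2, which recruits and phosphorylates the type I chain Tgfbr1, and Tgfbr1 in turn phosphorylates Smad2 and Smad3, which enter the nucleus with Smad4. The pathway is best known in CD4+ T cells for sustaining regulatory T cells, for taking part in the differentiation of interleukin-17-producing helper cells, and for restraining effector cytokines. Smad7 and Skil are known as genes that the pathway itself turns on and whose products restrain it, Smad7 at the receptor and Skil, with its relative Ski, at the Smads on DNA.

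The receptor chains and the ligand are shown by the stretch of genome just before their transcription start, since their messenger levels differed between the sorted groups and the receptor chains did so in opposite directions. RefSeq windows (build GRCm38.p6) matched 5 of the 9 members, Tgfb1, Tgfbr1, Tgfbr2, Smad3 and Ski, and Smad2, Smad4, Smad7 and Skil had no match. Each sequence below is the 250 bases before the start, read 5′ to 3′ on the gene's strand, with capitals at the Smad motif CAGAC and at the GC-rich Smad motif GGCGCC on either strand. The windows are chr4:47352972-47353221 (plus strand) for Tgfbr1, chr9:116175364-116175613 (minus strand) for Tgfbr2 and chr7:25686752-25687001 (plus strand) for Tgfb1.
Tgfbr1: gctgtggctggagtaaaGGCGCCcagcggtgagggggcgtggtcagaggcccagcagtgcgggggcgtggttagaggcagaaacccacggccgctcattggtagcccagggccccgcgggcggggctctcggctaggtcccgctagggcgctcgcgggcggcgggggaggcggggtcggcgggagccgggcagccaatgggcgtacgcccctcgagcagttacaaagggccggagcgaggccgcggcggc
Tgfbr2: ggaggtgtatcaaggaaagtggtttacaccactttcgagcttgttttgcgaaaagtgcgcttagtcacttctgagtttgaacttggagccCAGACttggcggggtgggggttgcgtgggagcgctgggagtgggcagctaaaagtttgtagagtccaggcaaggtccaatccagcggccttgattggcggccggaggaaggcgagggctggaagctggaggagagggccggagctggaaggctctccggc
Tgfb1: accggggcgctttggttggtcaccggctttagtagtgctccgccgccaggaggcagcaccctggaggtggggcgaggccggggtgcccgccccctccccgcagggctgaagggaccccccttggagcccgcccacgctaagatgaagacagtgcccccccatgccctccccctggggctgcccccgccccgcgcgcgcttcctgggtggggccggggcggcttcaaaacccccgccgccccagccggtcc

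The Tgfbr2 window held CAGAC 1 time, beginning 160 bases before the start. The Tgfbr1 window held no CAGAC and had GGCGCC 1 time, and the Tgfb1 window held neither. A later Tgfbr1 start, chr4:47385966-47386215, had CAGAC 1 time. Of 32851 windows of this length, 42.2% held CAGAC or its reverse complement and 9.59% held GGCGCC. The palindromic Smad element GTCTAGAC (0.167% of windows) and the Bcl6 core TTCCTAGAA (0.347%) were searched on both strands and matched none of the members' windows. None of these motifs contains another. The printed Tgfbr1 window was richer in G and C (74.8%) than the Tgfbr2 window (58.4%), and the window of the later Tgfbr1 start was poorer (52.8%). These matches describe letters in a window and carry no information on binding.

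Levels are log2 values normalised by the authors, so a difference of 1 is a 2-fold difference, and levels of different genes are not compared with each other. A gene is said to have risen or fallen where limma's moderated test, fitted over all named probe sets with Benjamini-Hochberg adjustment, gave an adjusted p under 0.05. All 3 comparisons use the same 6 arrays and are not independent. Group means are given in the order Cxcr5-Bcl6-, Cxcr5+Bcl6-, Cxcr5+Bcl6+ unless stated. Bcl6 averaged 10.31, 10.56 and 11.5, and Cxcr5 averaged 7.47, 9.94 and 11.0, which follows the gates. Some background moved as well: 1225 probe sets of olfactory, vomeronasal and trace-amine receptors, genes with no known role in T cells, lay at a median of 5.79, with 95% of them under 7.48, called the background level here. Their median difference was 0.22 for Cxcr5+Bcl6+ minus Cxcr5-Bcl6-, -0.07 for Cxcr5+Bcl6- minus Cxcr5-Bcl6-, and 0.30 for Cxcr5+Bcl6+ minus Cxcr5+Bcl6-. By the test above, 423 of the 1225 rose and 1 fell in the first of these, 1 and 7 in the second, and 573 and 0 in the third. These rises count among the probe sets called higher below. Every member stood above 7.48 in all 6 arrays. Centring the arrays on their medians moved the share of upward calls in the Cxcr5+Bcl6+ against Cxcr5+Bcl6- comparison from 50.8% to 39.6%.

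In Cxcr5+Bcl6+ cells, compared with Cxcr5-Bcl6- cells, Smad7, Skil, Tgfbr1 and Tgfb1 fell and Tgfbr2 rose. That is 5 of 9 members called, 4 lower and 1 higher, where 35.3% of all probe sets were called (17.7% lower, 17.6% higher), and the groups did not overlap for 6 members, beside 62.6% of all probe sets. Compared with Cxcr5+Bcl6- cells, Smad7, Tgfb1, Tgfbr1 and Skil fell and Tgfbr2 rose, 5 of 9 members where 26.4% of all probe sets were called (13.0% lower, 13.4% higher), with 6 members not overlapping beside 65.8%. Between the Bcl6- gates, Smad7, Skil and Tgfbr1 were lower in the Cxcr5+ cells and no member was higher, which is 3 of 9 where 11.1% of all probe sets were called (5.93% lower, 5.22% higher), with 5 members not overlapping beside 50.1%. The median difference over the 9 members was -0.04, -0.07 and -0.02 in these comparisons, beside 0.04, 0.05 and -0.03 over all named probe sets. No member of the trio Smad2, Smad3 and Ski was called in any comparison, and Smad4 missed the threshold.

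**Figure D1:**
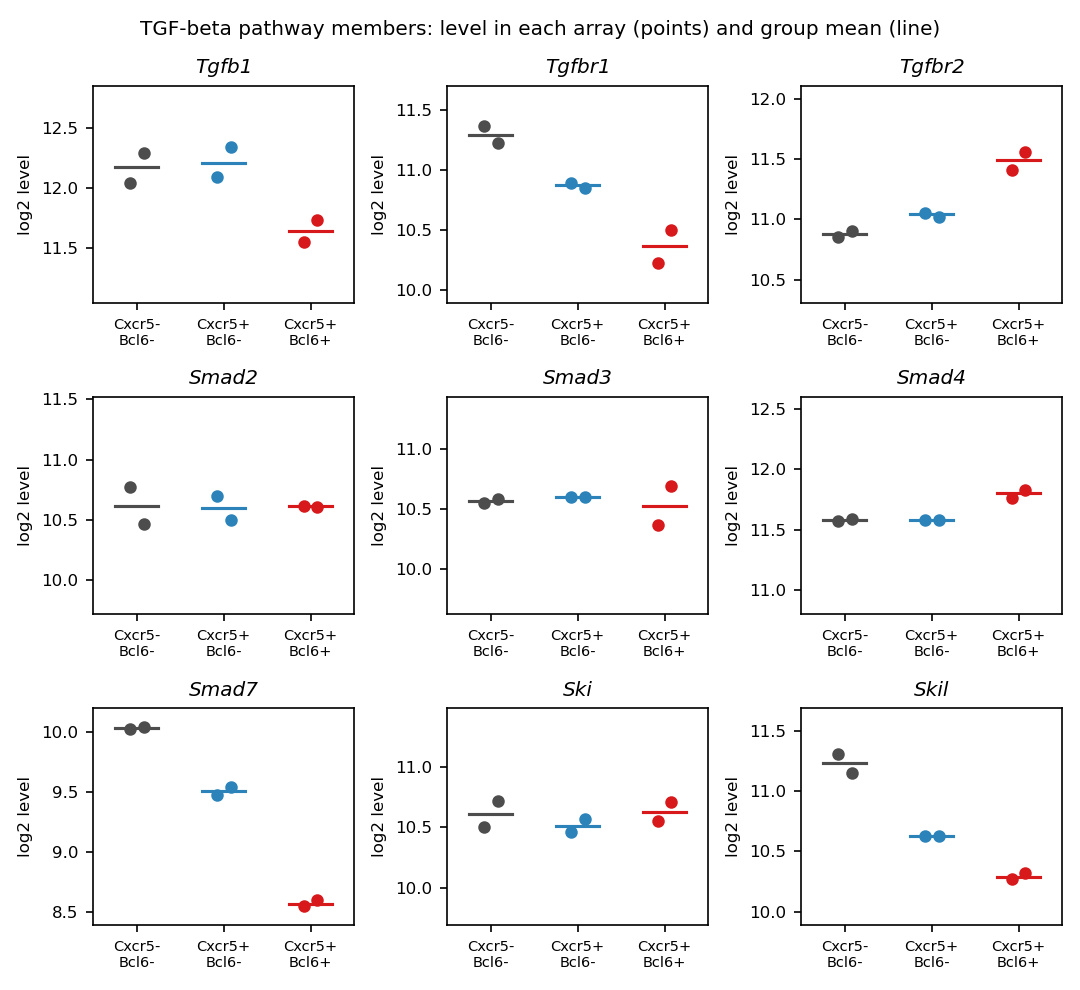
Log2 level (vertical axis, of the same span in every panel) of each of the 9 members in the 3 sorted groups, with 1 point per array and a line at the mean of 2 arrays. Smad7, Skil and Tgfbr1 step down from Cxcr5-Bcl6- to Cxcr5+Bcl6+ cells, Tgfbr2 is highest in Cxcr5+Bcl6+ cells, and the group means of Smad2, Smad3 and Ski each span at most 0.12.

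Markers of other cells moved beside these genes. In sorted bulk samples fewer cells of a type cannot be told apart from less RNA per cell. Over all genes, 17.7% fell and 16.4% rose in Cxcr5+Bcl6+ against Cxcr5-Bcl6- cells. In Cxcr5+Bcl6- against Cxcr5-Bcl6- cells 5.49% fell and 5.5% rose. The 8 CD4 T cell markers had a summed linear level of 46600 to 46700 in the Cxcr5-Bcl6- arrays, then 50200 to 50500 and 53200 to 55400, and none of the 8 was under the background level. The 9 regulatory T cell markers summed to 49000 to 51100, 42800 in both arrays, and 16900 to 18300 in that order, and 7 of 9 fell in Cxcr5+Bcl6+ against Cxcr5-Bcl6- cells. Between the Bcl6- groups, where Smad7, Skil and Tgfbr1 fell, 2 of 9 fell (Gpr83 and Lrrc32), and Foxp3 differed by -0.22 (limma adjusted p = 0.272). The 12 dendritic and myeloid markers summed to 6870 to 7190, 3200 to 3210 and 2270 to 2370, with Csf1r and Cd14 under the background level in all groups and 7 of the 12 under it in Cxcr5+Bcl6+ cells. Of these 12, 8 fell and 1 rose in both comparisons with Cxcr5-Bcl6- cells. Of 9 B cell markers, 8 rose in Cxcr5+Bcl6+ against Cxcr5-Bcl6- cells (sums of 1380 to 1410, 2350 to 2460 and 3530 to 3710 in the 3 groups), but 7 of the 9 stood under the background level in Cxcr5-Bcl6- cells, and Cd79a, Blk and Cr2 did so in all groups. The CD8 pair summed to 1070 to 1080, 614 to 650 and 550 to 594, and both genes fell in both comparisons with Cxcr5-Bcl6- cells. The 8 stromal and endothelial markers summed to 2730 to 2800, 3420 to 3430 and 3960 to 4090. In both of those comparisons Pecam1 was the 1 marker that rose, with group means of 10.13, 10.88 and 11.21. Kdr, itself under the background level, fell, and 6 were not called. The part of these cells in the differences of the 9 members and of the pathway genes around them was not tested.

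**Figure D2:**
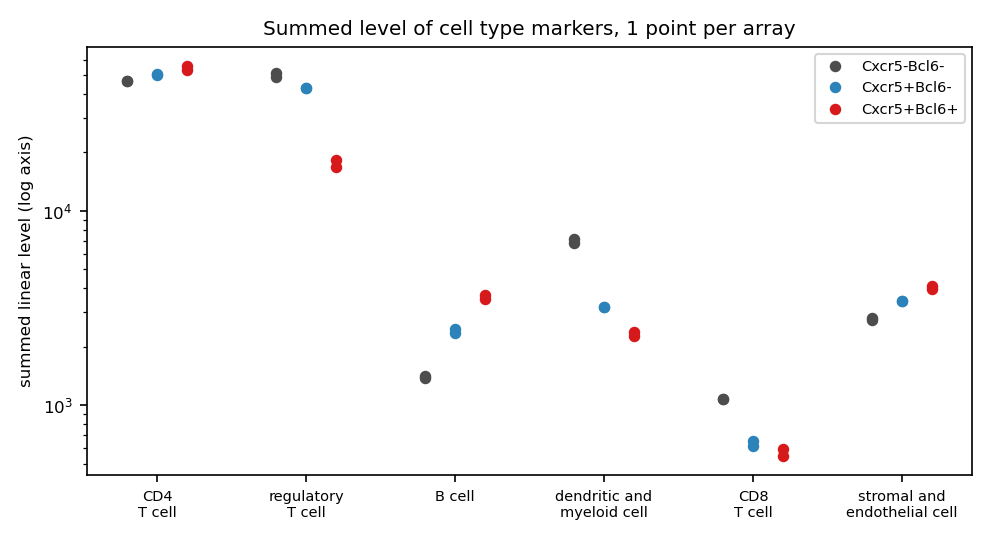
Sum of linear levels of 6 marker lists (vertical log axis), with 1 point per array in the 3 sorted groups. Regulatory T cell markers drop from 49000 to 51100 in Cxcr5-Bcl6- to 16900 to 18300 in Cxcr5+Bcl6+ arrays, and dendritic and myeloid markers from 6870 to 7190 to 2270 to 2370.

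Tgfb1, which encodes the main TGF-beta of lymphocytes (probe set 10551185), was lowest in Cxcr5+Bcl6+ cells. The Cxcr5-Bcl6- arrays read 12.04 and 12.29, the Cxcr5+Bcl6- arrays 12.09 and 12.34, and the Cxcr5+Bcl6+ arrays 11.55 and 11.73. The Cxcr5+Bcl6+ arrays lay below all 4 others, and the other groups overlapped. The mean of 11.64 ± 0.128 (SD, n = 2) was 1.44-fold below that of Cxcr5-Bcl6- cells (12.17 ± 0.179) and 1.49-fold below that of Cxcr5+Bcl6- cells (12.21 ± 0.175), with limma adjusted p = 0.00438 and adjusted p = 0.00422. Both calls ended without Cxcr5+Bcl6+ replicate 1 (adjusted p = 0.0556 and adjusted p = 0.0549). Between the Bcl6- groups the difference of 0.04 had a 95% interval from -0.22 to 0.31.

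Tgfbr1, the type I receptor kinase that phosphorylates Smad2 and Smad3 (probe set 10504817), fell in steps across the 3 gates. It stood at 11.36 and 11.22 in Cxcr5-Bcl6-, 10.89 and 10.85 in Cxcr5+Bcl6-, and 10.23 and 10.50 in Cxcr5+Bcl6+ arrays, with no overlap between any groups. The lowest group lay 1.89-fold under the highest (difference -0.92, SE 0.106, limma adjusted p = 3.52e-05). The step from Cxcr5+Bcl6- to Cxcr5+Bcl6+ cells was 1.42-fold (adjusted p = 0.00454). The step from Cxcr5-Bcl6- to Cxcr5+Bcl6- cells was 1.34-fold (adjusted p = 0.0254), and this call ended without Cxcr5-Bcl6- replicate 1 (0.117), without Cxcr5+Bcl6- replicate 1 (0.0964) and without Cxcr5+Bcl6- replicate 2 (0.146).

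Tgfbr2, the ligand-binding type II receptor chain (probe set 10597518), went the other way. Its level was 10.85 and 10.90 in Cxcr5-Bcl6-, 11.05 and 11.02 in Cxcr5+Bcl6-, and 11.41 and 11.56 in Cxcr5+Bcl6+ arrays. Cxcr5+Bcl6+ cells were 1.53-fold above Cxcr5-Bcl6- cells (difference 0.61, SE 0.0911, limma adjusted p = 0.00025) and 1.37-fold above Cxcr5+Bcl6- cells (adjusted p = 0.00356). Both rises passed in all 16 alternatives, with differences from 0.54 to 0.71 and from 0.38 to 0.53, beside background shifts of 0.22 and 0.30. The Bcl6- groups did not overlap, but their difference of 0.16 did not pass (95% interval -0.04 to 0.36, adjusted p = 0.367). Within each Cxcr5+Bcl6+ array, Tgfbr1 therefore lay under and Tgfbr2 over its own level in every Bcl6- array.

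The receptor-activated Smads, which carry the signal to the nucleus, showed no called difference. Smad2 (probe set 10456764) read 10.77 and 10.47 in Cxcr5-Bcl6-, 10.70 and 10.50 in Cxcr5+Bcl6-, and 10.62 and 10.61 in Cxcr5+Bcl6+ arrays. Smad3 (probe set 10594404) read 10.55 and 10.58, then 10.60 and 10.60, then 10.37 and 10.69 in the same order. Both genes overlapped between Cxcr5+Bcl6+ and the other groups. For Cxcr5+Bcl6+ minus Cxcr5-Bcl6- cells the 95% interval ran from -0.26 to 0.25 for Smad2 and from -0.28 to 0.20 for Smad3, and differences within these bounds could not be resolved with these arrays.

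Smad4, the partner shared with bone morphogenetic protein signals (probe set 10459705), was close to the threshold. It stood at 11.57 and 11.59 in Cxcr5-Bcl6-, 11.58 and 11.58 in Cxcr5+Bcl6-, and 11.76 and 11.83 in Cxcr5+Bcl6+ arrays, and the last group overlapped neither of the others. The difference of 0.22 gave a limma adjusted p = 0.0723 against Cxcr5-Bcl6- cells and 0.0874 against Cxcr5+Bcl6- cells. It passed with an intensity trend (0.0236 and 0.0311), after renewed quantile normalisation (0.0173 and 0.0429) and among probe sets above the median level (0.0356 and 0.049). The difference has the size of the background shift between these groups given above, whose part in it was not tested.

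Smad7, the inhibitory Smad that blocks the receptor and recruits ubiquitin ligases to it (probe set 10456745), had the widest range of the 9 members, 1.45 between group means. Its level was 10.02 and 10.04 in Cxcr5-Bcl6-, 9.47 and 9.54 in Cxcr5+Bcl6-, and 8.55 and 8.60 in Cxcr5+Bcl6+ arrays. The groups lay well apart, with differences of 0.52 and 0.93 between neighbouring group means and an SD of at most 0.0495 within a group. Cxcr5+Bcl6+ cells were 2.74-fold under Cxcr5-Bcl6- cells (SE 0.0866, limma adjusted p = 2.41e-07) and 1.91-fold under Cxcr5+Bcl6- cells (adjusted p = 1.4e-05). Cxcr5+Bcl6- cells were 1.43-fold under Cxcr5-Bcl6- cells (adjusted p = 0.00252). All 3 calls passed in each of the 16 alternatives.

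Of the related corepressors, Skil fell across the gates and Ski was not called. Skil (SnoN, probe set 10491300) read 11.31 and 11.15 in Cxcr5-Bcl6-, 10.63 and 10.63 in Cxcr5+Bcl6-, and 10.27 and 10.32 in Cxcr5+Bcl6+ arrays, 3 groups without overlap. Against Cxcr5-Bcl6- cells it was 1.92-fold lower in the Cxcr5+Bcl6+ gate (SE 0.0923, limma adjusted p = 1.02e-05) and 1.52-fold lower in the Cxcr5+Bcl6- gate (adjusted p = 0.00143). The 1.26-fold step between the Cxcr5+ groups (adjusted p = 0.0197) was lost on leaving out any of their 4 arrays: 0.0853 and 0.0504 without Cxcr5+Bcl6+ replicate 1 or 2, and 0.123 and 0.118 without Cxcr5+Bcl6- replicate 1 or 2. Ski (probe set 10519105) read 10.50 and 10.72, 10.46 and 10.57, and 10.55 and 10.71 in the same order of groups, which all overlap. Its difference between Cxcr5+Bcl6+ and Cxcr5-Bcl6- cells was 0.02 (95% interval -0.21 to 0.25, adjusted p = 0.89).

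**Figure D3:**
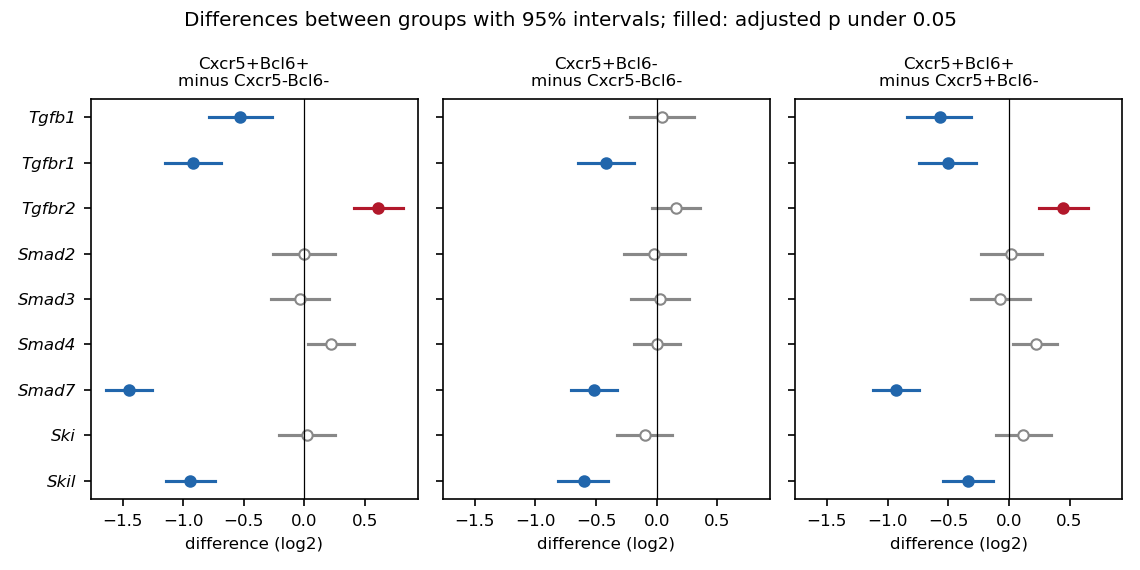
Difference in log2 level (horizontal axis) for each member in the 3 comparisons, with limma's 95% interval as a line; filled points passed at an adjusted p under 0.05. Smad7 lies at -1.45, -0.52 and -0.93 from left to right, and Tgfbr2 is the called member to the right of 0, at 0.61 and 0.45.

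The profiles of the members were set against each other after subtracting each gene's own mean over the 6 arrays, with the root mean square difference as the measure. Tgfbr1 and Skil were the closest pair of the 36, at 0.105, followed by Smad4 and Ski at 0.107 and Smad3 and Ski at 0.11. Skil and Ski, the related corepressors, lay 0.41 apart. The same measure named the closest genes for the 3 members of widest range, among 9969 genes above the median level. Smad7 was followed most closely by Nfkbid (0.0214), which encodes a nuclear inhibitor-type regulator of NF-kB, then by Atad3a (0.0421), a mitochondrial ATPase gene, and Pfas (0.0427), a purine synthesis gene. Nfkbid averaged 12.2, 11.73 and 10.79 in the 3 groups. Skil was followed by Scml4 (0.0435), the kinase gene Sgk1 (0.0601) and the phosphatase gene Dusp22 (0.0614). Tgfbr1 was followed by the cyclin gene Ccnj (0.0356), Telo2 (0.0366), whose product stabilises large PI3K-like kinases, and the ribosome biogenesis gene Las1l (0.04).

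**Figure D4:**
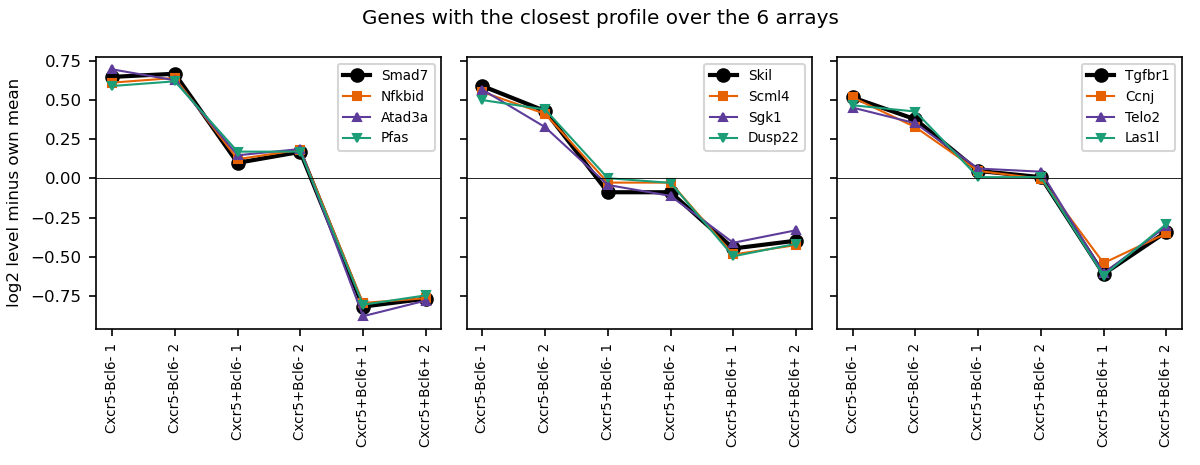
Log2 level minus the gene's own mean (vertical axis) in the 6 arrays (horizontal axis) for Smad7, Skil and Tgfbr1 in black and for the 3 genes closest to each in colour. The coloured lines lie 0.0214 to 0.0614 (root mean square) from the black ones; lines join arrays only to guide the eye.

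Around the 9 members, 128 other genes of the pathway and its reported targets were measured, in 7 lists. In Cxcr5+Bcl6+ against Cxcr5-Bcl6- cells 14 rose and 49 fell (49.2% called), where 16.4% of all genes rose and 17.7% fell. In Cxcr5+Bcl6+ against Cxcr5+Bcl6- cells 12 rose and 40 fell (40.6%), beside 11.8% and 13.2% of all genes. Between the Bcl6- gates 8 rose and 21 fell in the Cxcr5+ cells (22.7%), beside 5.5% and 5.49%. Most of the falls in the first comparison came from the target lists described last. Members and lists were chosen with earlier results of these data known, so their shares beside all genes are a description and no test of the pathway.

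The list of TGF-beta family ligands, their antagonists and their processing held 22 measured genes. Of these, 6 fell and 1 rose in Cxcr5+Bcl6+ against Cxcr5-Bcl6- cells. The 31.8% called is no more than the share over all genes (17.7% lower and 16.4% higher), with a list median of 0.10 beside 0.04 over all genes, and 8 stood under the background level in both groups. Lrrc32, which encodes GARP, the anchor for latent TGF-beta on regulatory T cells, averaged 12.27 ± 0.101, 11.26 ± 0.025 and 9.41 ± 0.213 (SD, n = 2 each); it is also 1 of the 9 regulatory T cell markers above. Itgb8 fell by 1.60 and Itgav by 0.97 on the log2 scale, and together they encode the integrin that releases TGF-beta from its latent complex. Nrros, an anchor of latent TGF-beta known from myeloid cells, fell by 1.06, and Inhba, which encodes an activin subunit, fell by 0.91. The limma adjusted p of these 5 genes was 9.85e-09, 1.06e-07, 1.49e-05, 4.03e-06 and 6.97e-05. Furin, the protease that cuts the TGF-beta precursor, had its top level in Cxcr5+Bcl6- cells: 11.37 and 11.49 in Cxcr5-Bcl6-, 11.89 and 11.96 in Cxcr5+Bcl6-, and 10.13 and 10.24 in Cxcr5+Bcl6+ arrays. Cxcr5+Bcl6+ cells differed by -1.24 from Cxcr5-Bcl6- cells and by -1.74 from Cxcr5+Bcl6- cells (adjusted p = 1.27e-06 and 2.13e-07). Furin rose by 0.50 from Cxcr5-Bcl6- to Cxcr5+Bcl6- cells (adjusted p = 0.00481, but 0.0539 without Cxcr5+Bcl6- replicate 2). The 1 rise was Tgfb3 at 0.44 (adjusted p = 0.00486), named after its value was seen, which averaged 7.28 in Cxcr5-Bcl6- cells, under the background level of 7.48. Against Cxcr5+Bcl6- cells the list had 6 falls and 1 rise (31.8% called), where 13.2% of all genes fell and 11.8% rose. Cxcr5+Bcl6- against Cxcr5-Bcl6- cells gave 2 falls, Lrrc32 and Nrros, and 1 rise, Furin. That is 13.6% called, near the share over all genes there (5.49% lower and 5.5% higher).

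Of 16 other receptors and coreceptors, 2 rose and 3 fell in Cxcr5+Bcl6+ against Cxcr5-Bcl6- cells (31.2% called, beside 17.7% lower and 16.4% higher over all genes). Acvr2a, an activin receptor, fell by 0.81, Bmpr2, a bone morphogenetic protein receptor, by 0.60, and the decoy receptor Bambi by 0.53 (limma adjusted p = 0.000485, 0.00202 and 0.00224). Bmpr1b rose by 0.42 between levels of 5.16 and 5.58, both under the background level of 7.48. Of 18 other Smads and nuclear partners, 4 rose and 4 fell in the same comparison (44.4% called). Runx3, a Runt factor that works with Smads, fell by 0.95 (adjusted p = 3e-05), Smad1, a Smad of the bone morphogenetic protein arm, by 0.44 (0.00158) and the corepressor Tgif2 by 0.43 (0.00383), while the acetyltransferase gene Ep300 rose by 0.45 (0.00379). In the other comparisons the receptors had 2 rises and 0 falls against Cxcr5+Bcl6- cells (12.5% called), where 11.8% of all genes rose and 13.2% fell. Between the Bcl6- gates the receptors had 0 rises and 2 falls (12.5%), where 5.5% of all genes rose and 5.49% fell. The nuclear partners had 1 and 1 (11.1%), then 1 and 2 (16.7%). Of these calls in the other comparisons, only the Runx3 fall held in every alternative, and the Smad1 fall was lost in 7 of 16. The count of 8 nuclear partners called was 5 with all rows tested and 5 without Cxcr5+Bcl6+ replicate 2.

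Of 24 measured regulators of receptor and Smad turnover, 2 rose and 6 fell in Cxcr5+Bcl6+ against Cxcr5-Bcl6- cells, 33.3% called and thus near the share over all genes (17.7% lower and 16.4% higher), and 13 were called after renewed quantile normalisation. Against Cxcr5+Bcl6- cells 2 rose and 5 fell (29.2% called, and 12 called after that normalisation), where 11.8% of all genes rose and 13.2% fell. Between the Bcl6- gates 1 rose and 4 fell (20.8%), where 5.5% of all genes rose and 5.49% fell. The counts after renewed normalisation stand without the share over all genes under that setting. They are not set against the shares given here. Pmepa1 and Ldlrad4 encode related membrane proteins that hold back Smad2 and Smad3, and both are reported as TGF-beta-induced. Pmepa1 read 11.69 and 11.84 in Cxcr5-Bcl6-, 11.38 and 11.31 in Cxcr5+Bcl6-, and 10.75 and 10.91 in Cxcr5+Bcl6+ arrays. Ldlrad4 read 9.79 and 9.80, then 10.33 and 10.40, then 10.99 and 11.15 in that order. One stepped down and the other up across the gates, by -0.93 and 1.28 between the end groups (limma adjusted p = 1.7e-05 and 9.77e-07). The kinase gene Sik1, a target of cyclic AMP signals as well, averaged 11.44, 10.43 and 10.44 in the 3 groups, so its whole step lay between Cxcr5-Bcl6- cells and both Cxcr5+ gates (adjusted p = 6.5e-06 and 3.94e-05). The phosphatase subunit gene Ppp1r15a averaged 10.35, 9.49 and 9.10, with differences of -1.25 and -0.86 from Cxcr5-Bcl6- cells (8.92e-07 and 8.51e-05). Among 12 genes of the kinase branches outside the Smads, 1 rose and 3 fell between the end groups, also 33.3%. Among them Traf6, a ubiquitin ligase, fell by 1.07 (2.65e-06), and Mapk14, which encodes p38, rose by 0.71 (7.13e-05). Against Cxcr5+Bcl6- cells these 12 kinase genes had 2 rises and 1 fall, where 11.8% of all genes rose and 13.2% fell. That share is no more than the share over all genes. Between the Bcl6- gates they had 0 rises and 2 falls (16.7% called), where 5.5% of all genes rose and 5.49% fell. These falls, of Traf6 and Pik3r1, were lost in 2 and 7 of the 16 alternatives. Against Cxcr5+Bcl6- cells the Traf6 fall and the Mapk14 rise held in every alternative, and the Pik3r1 rise was lost in 1.

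The last lists held genes reported to answer to TGF-beta, many of which also answer to other signals, and Foxp3 and Ctla4 are regulatory T cell markers as well. Of 16 measured genes listed as raised by it, 10 fell and 2 rose in Cxcr5+Bcl6+ against Cxcr5-Bcl6- cells, and of 22 listed as lowered by it, 18 fell and 3 rose. The median differences of these lists were -0.63 and -0.99, beside 0.04 over all genes, of which 17.7% fell and 16.4% rose. Among the first, Itgae, the integrin chain of tissue-resident T cells, fell by 2.38, and the regulatory T cell factor gene Foxp3 fell by 2.89 (limma adjusted p = 9.29e-09 and 7.23e-09). Itgae averaged 7.22 in Cxcr5+Bcl6+ cells, under the background level, which limits the size of its fall. Cish fell by 3.20 and is better known as a target of cytokine receptors through STAT5. Il17a averaged 11.7, 12.37 and 8.57 in the 3 groups. It fell by 3.13 in this comparison and rose by 0.67 from Cxcr5-Bcl6- to Cxcr5+Bcl6- cells (limma adjusted p = 2.52e-09 and 0.00125). The 2 rises were Ldlrad4 and Nt5e, the surface enzyme CD73, at 1.22 (adjusted p = 9.25e-07). Falls in the second list included Gzmb (-5.09), Ifng (-4.14), Tbx21 (-3.80) and Il12rb2 (-2.89), and its rises included Id3 (0.98) and Stat4 (0.90). In Cxcr5+Bcl6+ cells Gzmb averaged 6.72 and Il12rb2 7.1, under the background level of 7.48, and Ifng 7.50, next to it. The sizes of the falls of Gzmb, Il12rb2 and Ifng are therefore limited by background. Tbx21 averaged 7.82 in these cells, not far above the background level, and the falls are given no order. In Cxcr5+Bcl6- against Cxcr5-Bcl6- cells 4 rose and 3 fell of the first list, and 2 rose and 7 fell of the second, with medians of -0.05 and -0.02. Over all genes 5.5% rose and 5.49% fell there. Against Cxcr5+Bcl6- cells, Cxcr5+Bcl6+ cells had 10 falls and 2 rises in the first list and 18 falls and 3 rises in the second. The median over all genes was 0.06 there, with 13.2% lower and 11.8% higher, and the lists' medians were -0.44 and -0.80.

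**Figure D5:**
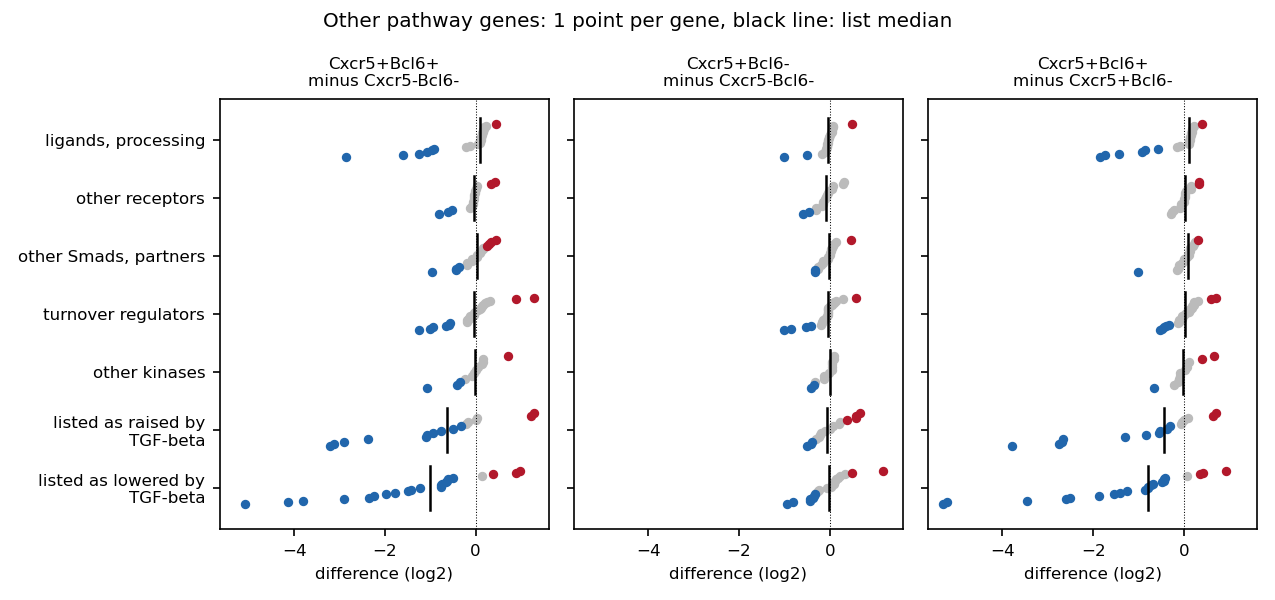
Difference in log2 level (horizontal axis) of every measured gene of the 7 lists in the 3 comparisons, blue for fallen, red for risen, grey for not called, with the list median as a black line. The 5 lists of pathway components centre near 0 with a few large falls, and both target lists lie left of 0 when Cxcr5+Bcl6+ cells are compared, with medians of -0.63 and -0.99 in the left panel.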

How the data were processed

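RNA of sorted CD4+ CD44+ T cells was measured on 6 Affymetrix arrays, 2 in each of 3 groups taken from the sample titles. The authors deposited 1 table of normalised log2 probe-set levels; the scale was read from its values. GCOS 1.1, RMA and Affymetrix Expression Console are named in the submitters' processing notes, without role or settings, and the sources used here name no genome build. Of 35556 rows, 23410 carried a gene name (21789 with 1 symbol, 1621 with several). Symbols came from the platform annotation, updated through Entrez identifiers for 21698.

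All 23410 named probe sets were fitted with limma 3.58.1 in R 4.3.3 (group means over 6 arrays, eBayes defaults, two-sided, Benjamini-Hochberg over all of them, threshold 0.05). The fit had 3 residual and 8.25 prior degrees of freedom. The 95% intervals are unadjusted. The number of arrays limits the precision. The fit was tested on simulated data. Members and lists were chosen with earlier results of these data known. Lists used 1 probe set per gene, that of highest mean. The naming rule took all members and the closest profiles. It also took, per list and comparison, up to 4 called genes of smallest p whose groups do not overlap. Not every gene it took is described. Itgav in its comparison with Cxcr5-Bcl6- cells, Inhba, Tgfb3, Nt5e, Id3 and Stat4 were named after their values were seen. The 16 alternatives covered eBayes options, normalisation, dim probe sets, rows tested, arrays fitted, the replicate number as a block and leaving out each array.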

Additional observations from a re-analysis of the deposited data

How the results depend on the processing

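Under the 16 alternatives no member reversed past the threshold, nor did any of the other pathway genes followed through them. Of 432 member values, 415 kept their direction or stayed uncalled on the same side of the threshold. Another 11 were no longer called, and 6, all of Smad4, became called. The number of called members ranged, when 1 array was left out, from 4 to 5 for Cxcr5+Bcl6+ against Cxcr5-Bcl6-, from 2 to 3 for Cxcr5+Bcl6- against Cxcr5-Bcl6-, and from 3 to 5 for Cxcr5+Bcl6+ against Cxcr5+Bcl6-, with 3 without Cxcr5+Bcl6+ replicate 1, when Tgfb1 and Skil were not called. Over all probe sets the counts called, 8255, 2610 and 6185 in that order, ranged from 6780 to 8370, from 1317 to 2624 and from 3617 to 6987. The lowest of the last 2 came without Cxcr5+Bcl6- replicate 1 (1317 and 3617), followed by 1401 and 3820 without Cxcr5+Bcl6- replicate 2. With all 35556 rows tested, 1579 were called for Cxcr5+Bcl6- against Cxcr5-Bcl6-, and Tgfbr1 (adjusted p = 0.112 by limma) was not called there, nor was Skil between the Cxcr5+ groups (0.0561). Deviations of arrays with the same replicate number had mixed correlations over probe sets (r = 0.26 between the Bcl6- groups, and -0.23 and -0.05 for Cxcr5+Bcl6+ with Cxcr5-Bcl6- and Cxcr5+Bcl6-), so the numbers were not taken as pairs. With the number as a replicate block, 7942, 2411 and 5862 probe sets were called, and no member's call changed. Calls of other pathway genes were followed through the alternatives, 36, 22 and 29 in the same order of comparisons. Some of these genes are not named above, and the Stat4 rise in Cxcr5+Bcl6+ against Cxcr5-Bcl6- cells is not among them. Of these calls, 34, 12 and 23 held in every alternative in which they were tested. Without an array of a pair, the lone array left was assumed to vary like the other groups.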

Other observations

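Tgfb1, Ski and Smad7 read higher in replicate 2 than in replicate 1 in every group. How many of all probe sets do so was not counted, so this is not shown to be particular to these genes. In the order Cxcr5-Bcl6-, Cxcr5+Bcl6-, Cxcr5+Bcl6+ the log2 gaps of Tgfb1 were 0.25, 0.25 and 0.18. Those of Ski were 0.21, 0.12 and 0.16, and those of Smad7 were 0.02, 0.07 and 0.05. Smad2 read lower in replicate 2 in every group, with gaps of -0.31, -0.21 and -0.01. With the replicate number as a block, the adjusted p of Tgfb1 by limma was 0.00114 for Cxcr5+Bcl6+ against Cxcr5-Bcl6- cells and 0.00125 against Cxcr5+Bcl6- cells.

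Ligand-side genes differed in where the large step lay, as values chosen after they were seen. In the same order of groups, Itgav averaged 11.97, 11.93 and 11.01, and Itgb8 averaged 10.73, 10.56 and 9.13. Tgfb1 had the same order of steps (12.17, 12.21 and 11.64), whereas Smad7 (10.03, 9.51 and 8.57) and Lrrc32 stepped down at both gates.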
